A study of Mus musculus with 18 samples.

Results

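The pancreatic lineage transcription factors described here are 9 genes chosen by name: Pdx1, Ptf1a, Sox9, Hnf4a, Foxa1, Foxa2, Gata4, Gata6 and Nr5a2. All 9 have a row among the 23951 genes of the deposited expression table, and 8 passed the filter on low values (1 FPKM or more in at least 3 libraries), the exception being Nr5a2. FPKM is the number of sequenced fragments scaled to transcript length and library size, so levels can be compared between genes. Poly(A) RNA of cells sorted from fresh mouse pancreas and pancreatic tumors was sequenced in 18 libraries of 5 groups. Normal pancreatic fibroblasts (NPF, n = 3) came from mice with Elas-tTA/tetO-Cre and a Rosa26+/EYFP reporter. Cancer-associated fibroblasts (CAF) and tumor cells came from mice that carried these alleles together with Trp53lox/lox. They were either without a Saa3 deletion (WT_CAF, n = 5; WT_tumor, n = 4) or Saa3-/- (KO_CAF, n = 3; KO_tumor, n = 3). The elastase promoter, which is active in acinar cells, drives the transactivator that turns on Cre, so neither Pdx1 nor Ptf1a regulatory sequence is part of the driver. The sources used here name neither the ages of the mice nor the markers of the sort, nor do they say whether tumor cells and fibroblasts shared animals. The group names abbreviate the labels' mNPF, Saa3_WT_CAF, Saa3_KO_CAF, Saa3_WT_Tumor and Saa3_KO_Tumor, and replicate numbers follow the order of deposition.

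These factors build the pancreas from the foregut endoderm and later separate its cell types. Foxa1 and Foxa2 are forkhead pioneer factors that open chromatin in endoderm, Gata4 and Gata6 are zinc finger factors of endoderm and of mesoderm, and Hnf4a is a nuclear receptor of liver, gut and pancreas. Pdx1 marks the pancreatic progenitor and later the beta cell, Sox9 the progenitor and the duct, and Ptf1a and the nuclear receptor Nr5a2 the acinar cell. In human pancreatic cancer, loss of GATA6 and HNF4A goes with the less differentiated, basal-like form.

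Promoter windows are shown for the 4 members with the largest tumor cell excess over CAF, Hnf4a, Pdx1, Foxa2 and Foxa1. After the exclusion given in the section on processing, RefSeq's table (GRCm38.p6) matched 6 of the 9 members with 10 start sites. No start site was used for Sox9, Gata4 and Gata6. A member missing from this count need not be missing from RefSeq. Each window runs from 250 bases before to 50 after a start site, 5′ to 3′ on the gene's strand, and capitals mark matches to the 5 motifs searched.
Hnf4a, upstream start (GRCm38.p6, chr2:163506607-163506906, plus strand): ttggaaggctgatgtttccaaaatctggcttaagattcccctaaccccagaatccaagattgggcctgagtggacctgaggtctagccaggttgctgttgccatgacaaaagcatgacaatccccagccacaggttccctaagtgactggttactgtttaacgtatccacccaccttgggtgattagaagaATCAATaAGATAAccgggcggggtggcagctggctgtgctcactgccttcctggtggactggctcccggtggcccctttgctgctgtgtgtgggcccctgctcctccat
Hnf4a, downstream start (GRCm38.p6, chr2:163546905-163547204, plus strand): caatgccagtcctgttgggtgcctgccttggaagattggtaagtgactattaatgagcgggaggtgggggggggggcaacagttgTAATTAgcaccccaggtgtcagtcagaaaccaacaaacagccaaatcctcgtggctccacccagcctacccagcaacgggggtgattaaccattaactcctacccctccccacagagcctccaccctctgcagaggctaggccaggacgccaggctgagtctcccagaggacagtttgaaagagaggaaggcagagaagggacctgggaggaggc
Foxa1 (GRCm38.p6, chr12:57546062-57546361, minus strand): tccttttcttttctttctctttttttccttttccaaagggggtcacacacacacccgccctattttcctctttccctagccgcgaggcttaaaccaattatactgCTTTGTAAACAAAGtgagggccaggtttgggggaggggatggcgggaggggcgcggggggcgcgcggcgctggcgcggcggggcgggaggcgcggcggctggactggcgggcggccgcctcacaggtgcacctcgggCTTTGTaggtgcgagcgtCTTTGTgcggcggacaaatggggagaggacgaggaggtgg
Foxa2, most downstream start (GRCm38.p6, chr2:148045415-148045714, minus strand): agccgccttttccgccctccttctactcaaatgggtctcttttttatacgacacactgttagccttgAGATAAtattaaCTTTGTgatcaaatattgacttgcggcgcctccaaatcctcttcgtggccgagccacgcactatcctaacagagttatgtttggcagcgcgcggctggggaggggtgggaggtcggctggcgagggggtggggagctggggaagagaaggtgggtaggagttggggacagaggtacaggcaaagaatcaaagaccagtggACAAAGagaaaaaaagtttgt
Pdx1 (GRCm38.p6, chr5:147269847-147270146, plus strand): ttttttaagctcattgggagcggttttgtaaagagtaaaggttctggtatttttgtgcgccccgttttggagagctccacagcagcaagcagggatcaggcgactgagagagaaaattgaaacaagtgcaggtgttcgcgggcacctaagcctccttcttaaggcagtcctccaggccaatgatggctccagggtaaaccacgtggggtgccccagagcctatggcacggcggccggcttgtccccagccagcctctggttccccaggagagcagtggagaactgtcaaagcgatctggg
The motifs were searched on both strands and as exact letters. They were TGTTTAC for forkhead, AGATAA for GATA factors, TAATTA for homeodomain, ATCAAT for ONECUT and ACAAAG for SOX factors. The upstream Hnf4a window holds an ONECUT match 59 bases and a GATA match 52 bases before the start, and the downstream one holds 1 homeodomain match. In the Foxa1 window a forkhead match overlaps a SOX match on either side of it. In the Foxa2 window a GATA match lies near a SOX match, and a second SOX match lies 30 bases after the start. This window was chosen as the one of 3 Foxa2 windows with most matches; the other 2, not printed, hold 0 matches and 1 ONECUT match. The Pdx1 window holds none of these letters. Among 32851 promoter windows of the same length, 3.65% hold the forkhead letters, 11.2% the GATA, 5.29% the homeodomain, 7.54% the ONECUT and 18.7% the SOX letters. A match is a run of letters and no measure of binding, and gene-level FPKM does not separate the start sites of Hnf4a or Foxa2.

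A pair of libraries stood apart from the others of their groups in some markers. WT_CAF 1 held 9.80 FPKM of the fibroblast receptor Pdgfra, against 81.0 to 123 in the other 7 CAF libraries, and 252 FPKM of the epithelial keratin Krt8, against 0.892 to 116. WT_tumor 4 was low in Epcam, an adhesion molecule of epithelia, at 2.60 FPKM against 129 to 586 in the other 6 tumor cell libraries. Its Cldn4 (1.66 FPKM) and Cldn7 (5.95) were low as well. Its Krt8 (1187.5 FPKM), Krt18 (1109), Krt19 (438), Krt7 (134) and Cdh1 (46.5) were above those of every CAF library. In the sums given below, WT_tumor 4 was at 2924 for epithelial and 72.8 for fibroblast markers. Saa3, the deleted gene, was at 0 to 1.85 FPKM in the 6 knockout libraries and at 2.75 to 4278 in the other 12. Summed over 8 epithelial markers, FPKM was 2924 to 8551 in tumor cells, 627 in WT_CAF 1, 2.62 to 347 in the other CAF and 5.70 to 32.7 in NPF. The highest of these other CAF were WT_CAF 5 (347, with Epcam at 12.1 FPKM) and KO_CAF 1 (211, with Epcam at 7.03). Summed over 8 fibroblast markers it was 12.8 to 677 in tumor cells, 883 in WT_CAF 1, 7456 to 23451 in the other CAF and 3206 to 8786 in NPF. These sums include collagen genes listed at exactly 0 beside high Dcn and Lum, which can be failed estimates (Col3a1 in WT_CAF 2, 3 and 4 and KO_CAF 1 and 2, and Col1a1 and Col1a2 in KO_CAF 2, the library with the sum of 7456), and a 0 listed for a member can be of the same kind. In bulk RNA, fewer cells of a type and less RNA per cell cannot be told apart. A gene was called when its adjusted p was under 0.05 in limma (Benjamini-Hochberg over 13369 genes), on log2(FPKM + 1) and with the library format (no index, a 6-base or a 16-base index in the label) in the fit. Differences are given as log2 ± standard error on that scale, which understates the change of low genes: with a pseudocount of 0.1 the rise of Pdx1 was 6.25 in place of 3.40. The labels do not say that the libraries of a group came from separate animals, so the p-values measure the spread between these samples.

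Tumor cells were first compared with the fibroblasts of the tumors (7 libraries against 8, averaged over the Saa3 genotypes). Of the 8 members tested, 7 were higher in tumor cells and 1, Gata6, was lower. Hnf4a, Pdx1, Foxa2, Foxa1, Sox9 and Gata4 rose by 1.61 to 4.20 on the log2 scale, and Ptf1a was at the edge of the threshold. The same comparison called 45.9% of all tested genes, with 23% higher and 23% lower, so a call by itself sets a member little apart. The median difference was 2.78 over the 8 members and 0.07 over all tested genes. Because WT_CAF 1 and 2 share the no-index format only with NPF, the size of each difference between tumor cells and CAF comes from the other 6 CAF libraries, and leaving out WT_CAF 1 changed only its error. Within the genotypes, WT_tumor against WT_CAF called 6 members higher and 0 lower (21.5% of all tested genes called), and KO_tumor against KO_CAF called 6 higher and 1 lower (28.4%). Ptf1a was called in neither pair, at 1.33 ± 0.64 (limma adjusted p = 0.15) and 1.04 ± 0.65 (adjusted p = 0.25).

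**Figure D1:**
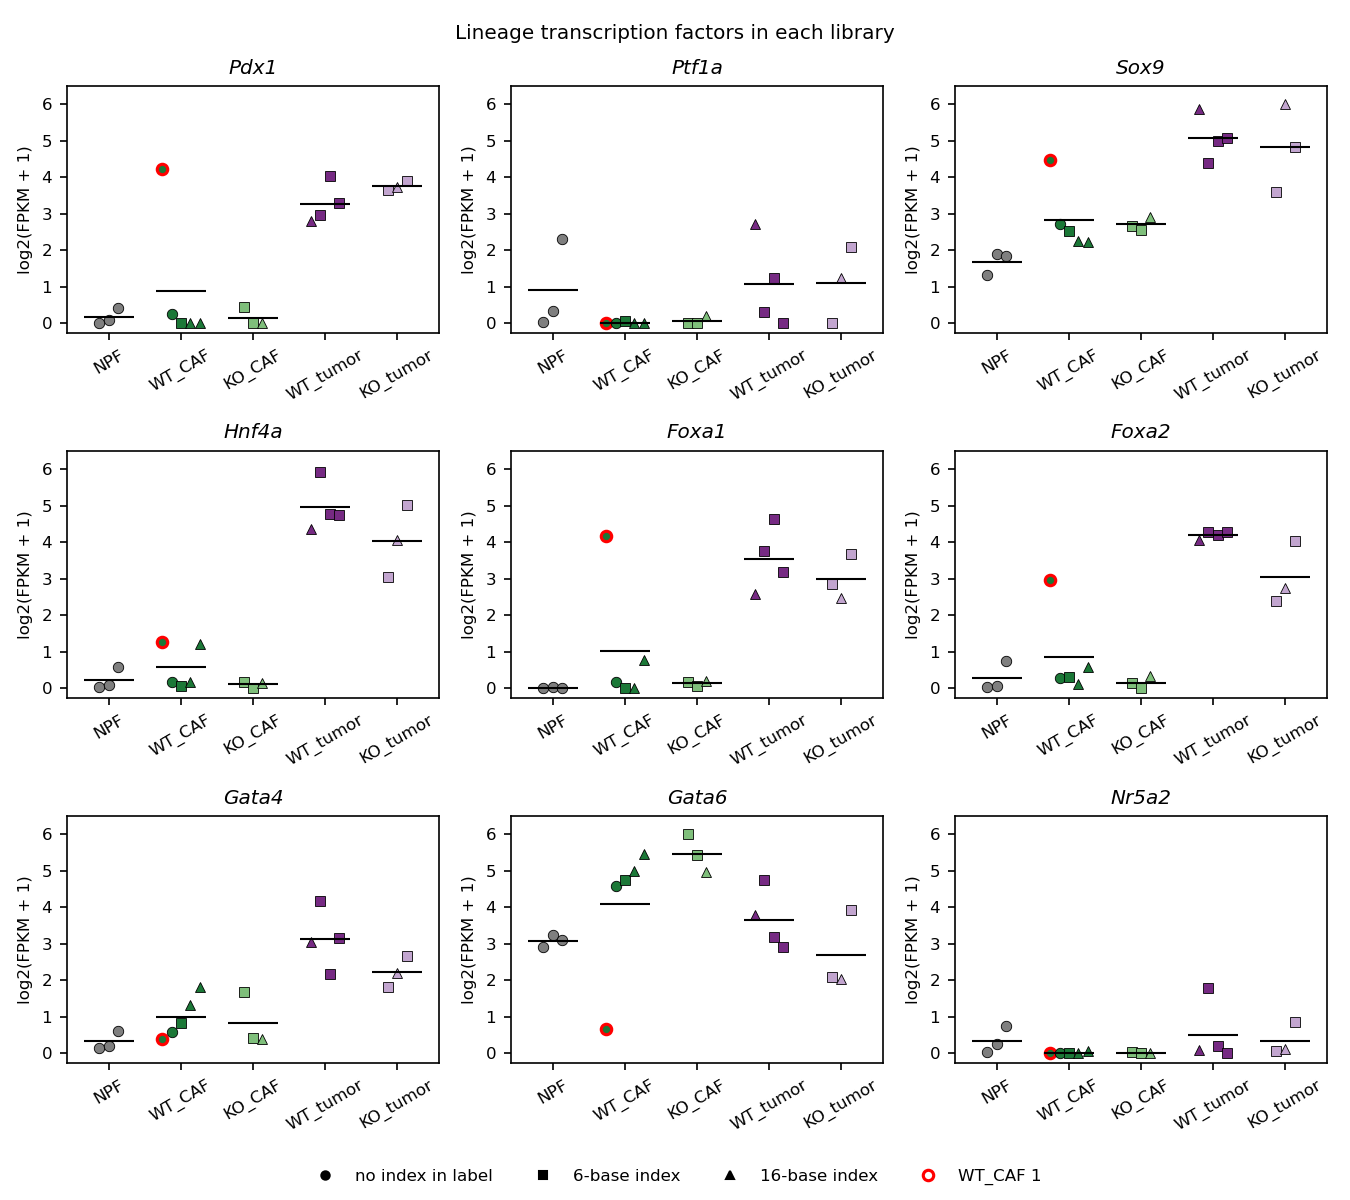
Level of each of the 9 factors in each of the 18 libraries, as log2(FPKM + 1) on the vertical axis, with 1 point per library and 1 column per group; the marker follows the index (none, 6 or 16 bases), the red outline marks WT_CAF 1 and horizontal lines are group means. Hnf4a, Foxa1, Foxa2, Pdx1 and Sox9 lie higher in the 7 tumor cell libraries than in the 10 fibroblast libraries other than WT_CAF 1, while Gata6 peaks in CAF.

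Hnf4a separated tumor cells from fibroblasts most widely. It stood at 19.8, 59.3, 26.5 and 26.1 FPKM in WT_tumor and at 7.23, 15.8 and 31.8 in KO_tumor. The values in WT_CAF were 1.41, 0.139, 0.0459, 0.123 and 1.31 (replicates 1 to 5), those in KO_CAF 0.125, 0.0111 and 0.110, and those in NPF 0.0255, 0.0687 and 0.499. Every tumor cell library was above every fibroblast library, WT_CAF 1 included. Hnf4a was the only member of which this held, as it did for 3.69% of tested genes between tumor cells and CAF. The difference was 4.20 ± 0.35 (limma adjusted p = 3.3e-06). Taken separately, the 6-base libraries gave 4.62 and the 16-base libraries 3.72.

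Foxa2 and Foxa1, the pair of forkhead pioneers, were both low in fibroblasts. Foxa2 stood at 15.6, 18.5, 17.4 and 18.4 FPKM in WT_tumor, the narrowest spread of any member there, and at 4.24, 5.76 and 15.4 in KO_tumor. In CAF other than WT_CAF 1 it was at 0 to 0.514, and in NPF at 0.0231, 0.0435 and 0.673. Foxa1 stood at 4.97, 12.5, 24.1 and 8.18 FPKM in WT_tumor and at 6.28, 4.52 and 11.9 in KO_tumor. It was at 0.0175 to 0.710 in CAF other than WT_CAF 1 and at 0, 0.0300 and 0.0177 in NPF. For both genes every tumor cell library lay above the 10 fibroblast libraries other than WT_CAF 1, which held 6.83 FPKM of Foxa2 and 17.1 of Foxa1. Foxa2 rose by 3.36 ± 0.38 (limma adjusted p = 2.1e-05) and Foxa1 by 2.98 ± 0.52 (adjusted p = 4.9e-04). Per length, the FPKM of Foxa2 was above that of Foxa1 in 5 of the 7 tumor cell libraries and below it in WT_tumor 3 and KO_tumor 1.

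Pdx1, the homeodomain factor of the pancreatic progenitor, stood at 5.998, 6.86, 15.6 and 8.79 FPKM in WT_tumor and at 11.5, 12.4 and 13.95 in KO_tumor. It was listed at 0 in 5 of the 8 CAF libraries, at 0.194 in WT_CAF 2 and at 0.370 in KO_CAF 1, and NPF held 0, 0.0725 and 0.343. WT_CAF 1, at 17.7 FPKM, held more Pdx1 than any other of the 18 libraries. Pdx1 rose by 3.40 ± 0.47 in tumor cells (limma adjusted p = 8.5e-05).

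Sox9, the progenitor and duct factor, was the member with the highest level in 4 of the 7 tumor cell libraries and was present in all groups. It stood at 57.45, 20.0, 31.0 and 32.8 FPKM in WT_tumor and at 11.2, 63.3 and 27.6 in KO_tumor. WT_CAF held 21.3, 5.63, 4.75, 3.796 and 3.72, KO_CAF 5.35, 4.90 and 6.54, and NPF 1.51, 2.75 and 2.57. Tumor cells lay above all fibroblasts other than WT_CAF 1, as they did for 4 other members (5 of 9, against 5.85% of tested genes). NPF lay below the 7 CAF libraries other than WT_CAF 1, as for 8.11% of tested genes. The difference between tumor cells and CAF was 2.58 ± 0.34 (limma adjusted p = 5.6e-05). It was 2.0005 within the 6-base and 3.47 within the 16-base libraries.

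**Figure D2:**
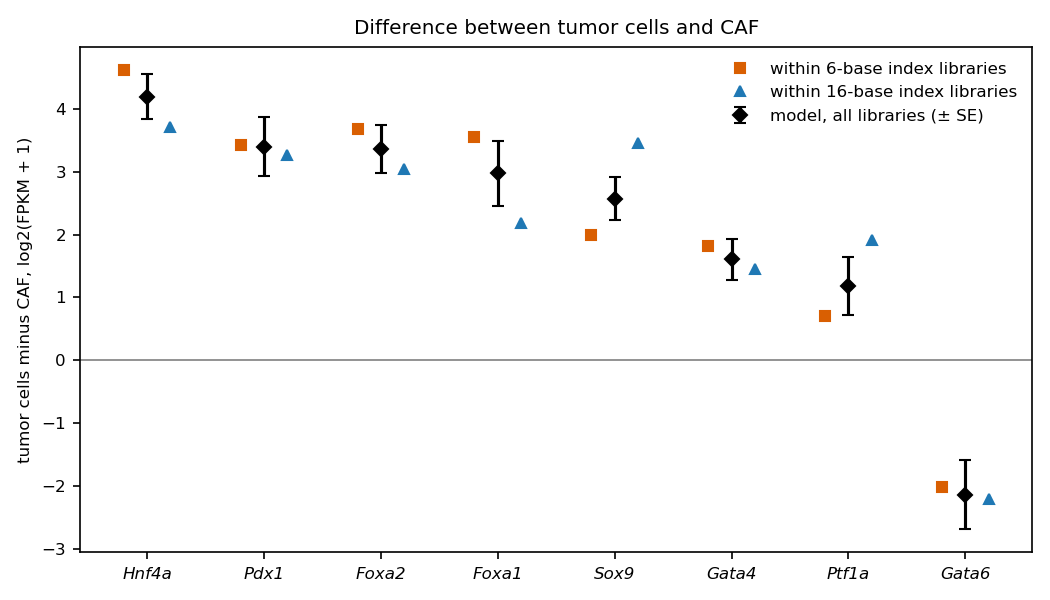
Difference between tumor cells and CAF for the 8 members tested, in log2(FPKM + 1) on the vertical axis; diamonds with bars are the limma difference ± standard error over all libraries, squares and triangles are the differences of means within the 6-base and the 16-base libraries. All 3 values of a gene lie on the same side of 0, below it for Gata6 (-2.02 to -2.21) and above it for the other 7.

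The 2 GATA factors went opposite ways. Gata4 stood at 7.29, 17.2, 3.49 and 7.98 FPKM in WT_tumor and at 2.52, 3.64 and 5.40 in KO_tumor. The values in WT_CAF were 0.312, 0.504, 0.777, 1.49 and 2.52, those in KO_CAF 2.21, 0.348 and 0.307, and those in NPF 0.116, 0.151 and 0.537. The lowest tumor cell library and the highest CAF library were both at 2.52, so the groups touched. The highest CAF libraries in Gata4, WT_CAF 5 and KO_CAF 1, also held more epithelial marker RNA than most CAF, and its part in these values was not tested. Gata4 rose by 1.61 ± 0.33 (limma adjusted p = 0.0015), the same direction as the forkhead factors and Hnf4a. Within the knockout pair it was at 1.40 ± 0.47 (adjusted p = 0.039), a call lost when any of 4 of the 6 libraries was left out.

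Gata6 was the 1 member called lower in tumor cells, with its highest values in CAF. It stood at 0.583, 22.9, 26.0, 30.7 and 42.9 FPKM in WT_CAF and at 62.8, 42.2 and 29.99 in KO_CAF. Tumor cells held 12.9, 25.7, 8.16 and 6.52 in WT_tumor and 3.27, 3.12 and 14.2 in KO_tumor. NPF held 6.59, 8.51 and 7.56, a level inside the range of tumor cells. Apart from WT_CAF 1, the 7 CAF libraries lay above the 3 NPF libraries (as for 8.11% of tested genes), and only WT_tumor 2 reached into their range among tumor cells. Gata6 was lower in tumor cells by a log2 difference of -2.14 ± 0.55 (limma adjusted p = 0.0065). In KO_tumor against KO_CAF the difference was -2.77 ± 0.79 (adjusted p = 0.019), and in WT_tumor against WT_CAF it was -1.51 ± 0.78 (adjusted p = 0.18), or adjusted p = 0.045 when WT_CAF 1 or WT_CAF 2 was left out, with the same size. Without the format term, where WT_CAF 1 enters on equal terms, the difference in this wild-type pair was -0.43 (adjusted p = 0.73). The call in the knockout pair was lost without KO_CAF 1, KO_CAF 2, KO_tumor 1 or KO_tumor 2 (adjusted p = 0.051 to 0.081).

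Ptf1a and Nr5a2, the factors of the acinar cell, were low and scattered. Ptf1a stood at 5.65, 0.233, 1.36 and 0 FPKM in WT_tumor, at 0, 1.37 and 3.23 in KO_tumor and at 0.0375, 0.278 and 3.97 in NPF. It was listed at 0 in 6 of the 8 CAF libraries and did not exceed 0.160 in any. The libraries with most Ptf1a were among those with most acinar enzyme RNA. The mean log2 level of 13 acinar enzymes was 9.29 in WT_tumor 1, 10.2 in KO_tumor 3 and 11.3 in NPF 3, and it was 0.808 in WT_tumor 4 and 0.520 in KO_tumor 1, where Ptf1a was listed at 0. Enzyme means were also high, with less Ptf1a, in KO_tumor 2 (9.38 with 1.37 FPKM), WT_tumor 2 (8.48 with 0.233) and NPF 2 (8.45 with 0.278). The part of acinar RNA in the Ptf1a values was not tested. Ptf1a was called higher in tumor cells (1.18 ± 0.46, limma adjusted p = 0.048), but the call was lost when any 1 of 12 libraries was left out. Without WT_tumor 1, the library with the highest value, the difference was 0.80 (adjusted p = 0.17).

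Nr5a2 reached 1 FPKM in 1 library only, WT_tumor 2, at 2.43. The next were KO_tumor 3 at 0.834 and NPF 3 at 0.692, and the other 15 libraries lay between 0 and 0.193. It was not tested in the filtered fit. Without a filter the difference between tumor cells and CAF was 0.36 ± 0.26 (limma adjusted p = 0.33 over 19932 genes).

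**Figure D3:**
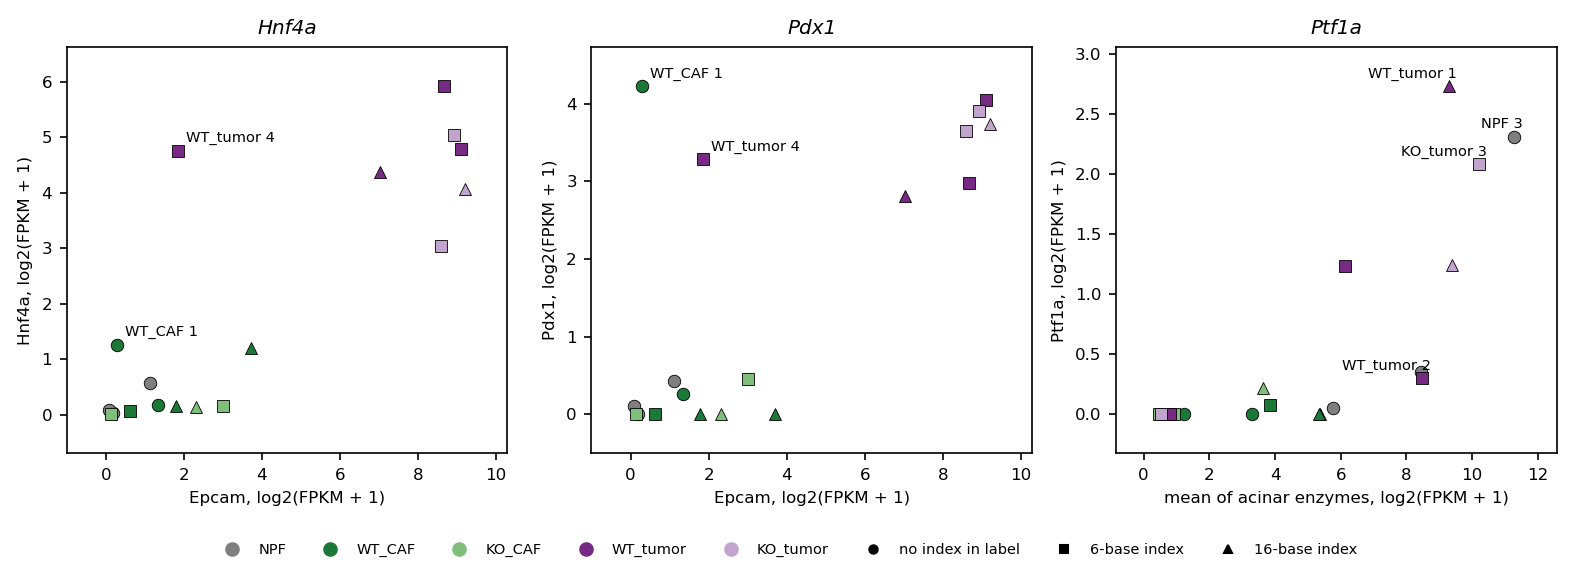
Hnf4a and Pdx1 against the epithelial marker Epcam, and Ptf1a against the mean of 13 acinar enzymes, all in log2(FPKM + 1), with 1 point per library; color gives the group and shape the form of the index. WT_tumor 4 lies at low Epcam (2.60 FPKM) with Hnf4a at 26.1 and Pdx1 at 8.79 FPKM, WT_CAF 1 combines the highest Pdx1 (17.7 FPKM) with Hnf4a at 1.41, and Ptf1a is highest in WT_tumor 1, NPF 3 and KO_tumor 3.

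The members did not move as a block among the 7 tumor cell libraries. Hnf4a was high in the same libraries as Gata6 (Pearson r = 0.85), Foxa2 (0.84) and Gata4 (0.82), while Pdx1 was low where Gata4 was high (-0.74) and had r = -0.26 with Hnf4a. These are descriptions over 7 libraries, in which the values of all members come from the same RNA. WT_tumor 2 shows the first pattern, with the highest Hnf4a, Gata4, Gata6, Nr5a2 and Foxa2 of the tumor cells and the lowest Pdx1 but for WT_tumor 1. KO_tumor 1 lay at the other end, with the lowest Hnf4a, Foxa2, Sox9 and Gata4 and a Pdx1 of 11.5 FPKM. WT_tumor 4, with little Epcam, kept 26.1 FPKM of Hnf4a, 18.4 of Foxa2 and 32.8 of Sox9, and lay within the range of the other tumor cells for each of the 8 tested members.

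WT_CAF 1 carried only some of the members. Its Pdx1 (17.7 FPKM) and Foxa1 (17.1) were at or near the top of all libraries, and its Sox9 (21.3) and Foxa2 (6.83) lay in the range of tumor cells. Its Hnf4a (1.41) was below every tumor cell library, its Gata4 (0.312) was within the range of the CAF, and its Gata6 (0.583) was the lowest of all 18 libraries. Epcam was at 0.220 FPKM there and the epithelial cadherin Cdh1 at 10.1, against 46.5 to 228 in tumor cells.

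Other transcription factors were read from lists chosen with earlier results known, beside the 23% of all tested genes called in each direction. Of 18 epithelial and ductal factors tested, 14 were higher in tumor cells, 1 was lower and 3 did not pass the test (median 1.87). The largest rises were those of Elf3, an epithelial ETS factor (4.90 ± 0.73), Onecut2, a cut homeodomain factor of liver and pancreas (3.70 ± 0.47), the ETS factor Ehf (3.66 ± 0.43) and the Krüppel-like factor Klf5 (3.28 ± 0.42). Creb3l1 fell by 2.89 ± 0.52 on the log2 scale. These differences had adjusted p of 2.65e-05 (Ehf) to 6.1e-04 (Creb3l1) in limma.

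Of 17 mesenchymal factors, 13 were lower in tumor cells and 0 higher (median -1.94). The largest falls were in Osr1 (-4.62 ± 0.46), Tcf21 (-4.22 ± 0.68) and Prrx1 (-4.16 ± 0.34), all factors of connective tissue mesenchyme, and in Barx1 (-3.90 ± 0.86), a homeobox factor of foregut mesenchyme, with adjusted p of 2.8e-06 to 0.00255 in limma. Gata6 thus shared its direction with this list. Zfpm2, a cofactor of GATA proteins, was also lower (-1.47 ± 0.41, adjusted p = 0.010), while Gata5 (1.85 ± 0.43, adjusted p = 0.0035), Gata3 (0.65 ± 0.18, adjusted p = 0.011) and Sox4 (0.99 ± 0.30, adjusted p = 0.016) were higher. Of these 7 GATA and SOX relatives tested, 3 were higher, 1 was lower and 3 did not pass the test.

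The acinar and endocrine factors went both ways, with 3 of 5 tested called in each list, against 45.9% of all tested genes. Of 5 acinar factors, Bhlha15 (0.91 ± 0.33, limma adjusted p = 0.037) and Nr0b2 (1.20 ± 0.34, adjusted p = 0.012) were higher and Xbp1, a factor of the secretory stress response, was lower (-1.18 ± 0.35, adjusted p = 0.015). Rbpjl, the partner of Ptf1a in the acinar complex, was at 0.88 ± 0.47 (adjusted p = 0.14). Of 13 endocrine factors listed only 5 passed the filter, of which Nkx6-1 (1.55 ± 0.26, adjusted p = 3.6e-04) and Insm1 (1.21 ± 0.39, adjusted p = 0.023) were higher, Isl1 (-1.70 ± 0.25, adjusted p = 1.45e-04) was lower, and 2 did not pass the test.

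**Figure D4:**
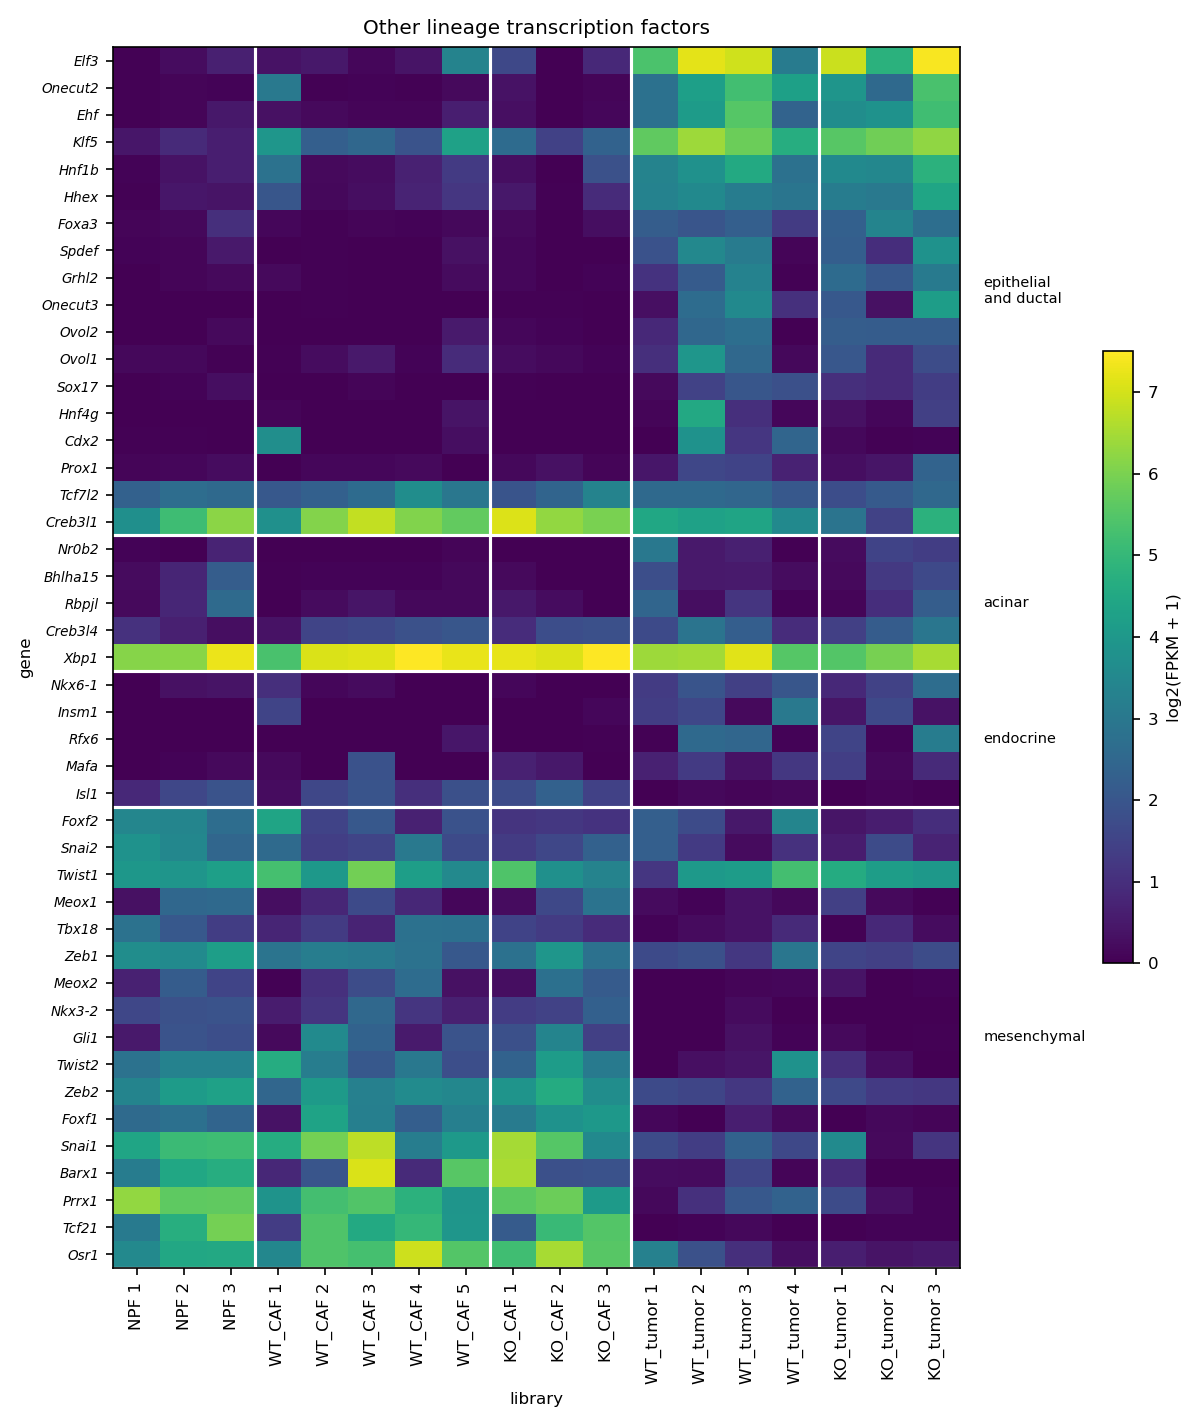
Level of the other lineage transcription factors that were tested, as log2(FPKM + 1) in color, with genes in rows (grouped by list and ordered by their difference between tumor cells and CAF) and the 18 libraries in columns. Most of the 18 epithelial and ductal factors are bright in tumor cells, most of the 17 mesenchymal factors in fibroblasts, and WT_CAF 1 carries Onecut2 at 7.17 FPKM.

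Effector genes were read beside the factors and beside the 23% of all tested genes called in each direction. Of 18 genes of the classical, better differentiated tumor subtype, 17 were higher in tumor cells and 1, Tff3, did not pass the test (median 4.14), led by the secretory factor Agr2 (6.45 ± 0.61), the trefoil peptide Tff2 (6.41 ± 1.28), the protease Ctse (6.18 ± 0.69) and the tetraspanin Tspan8 (6.04 ± 0.68), with adjusted p of 7.1e-06 to 0.0013 in limma. Of 11 basal-like subtype genes listed only 5 passed the filter, and all 5 were higher as well (median 2.53). The laminin chain Lamb3 was at 4.26 ± 0.56 and the keratin Krt14 at 2.53 ± 0.50. Krt6a and Krt17 reached 1 FPKM in tumor cells only, so the filter favored their direction. Of the untested genes, Krt5 (4.21 FPKM), Krt15 (14.5) and Trp63 (1.13) were highest in WT_CAF 5 and S100a2 (0.615) in NPF 1. Dsg3 (0.526) and Fat2 (0.591) were highest in tumor cells. Of 13 acinar enzymes 3 were called higher (Cel 4.30 ± 1.53, Gp2 4.18 ± 1.37 and Amy2b 3.39 ± 1.21) and 10 did not pass the test. This count is near the share of all tested genes. All 13 differences were above 0, with a median of 4.05, and their part in the acinar factors Bhlha15 and Nr0b2 was not tested. The cell type markers followed the sort, with 8 of 8 epithelial markers higher (median 5.98) and 7 of 8 fibroblast markers lower (median -5.72), the exception being Col3a1, with its listed zeros in CAF. Of the few tested markers of other cells, 0 of 3 endocrine ones were called, 1 of 3 macrophage markers (Csf1r, -1.72 ± 0.36) and the 1 endothelial marker (Kdr, -2.36 ± 0.54) were lower, and of 4 mesothelial ones Msln was higher (5.14 ± 0.84) and 3 were lower.

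For each tested member, the 3 genes with the most similar pattern were listed by Pearson correlation over the 18 libraries, as a description. Hnf4a was closest to the intestinal cadherin Cdh17 (r = 0.99), Rab27b (0.99) and Noxa1 (0.98). Foxa1 was closest to Mlph (0.99), Lmo7 (0.98) and Fam84b (0.98), and Foxa2 to the myosin Myo5b (0.98), Dnajc22 (0.98) and Ivns1abp (0.97). Pdx1 was closest to the arginine deiminase Padi2 (0.98), the sphingomyelin synthase Sgms2 (0.97) and Gm14137 (0.97), and Sox9 to Pilrb1, Fam84a and Rtkn (0.95 each). Ptf1a was closest to its partner Rbpjl (0.97), P2rx1 (0.95) and the cholecystokinin receptor Cckar (0.95). Gata4 was closest to Gipc2 (0.93), Gm5549 (0.92) and the galectin Lgals2 (0.91). Gata6 was closest to 1010001N08Rik (0.94), followed by Usp25 (0.90) and Lrig3 (0.89). RefSeq names 1010001N08Rik as Gata6os, which overlaps Gata6 on the opposite strand, and whether counting used strand is not given, so reads of the pair cannot be told apart. The same holds for Hnf4a and Hnf4aos and for Ptf1a and Ptf1aos.

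The 5 WT_CAF libraries were then set against the 3 NPF libraries, fibroblasts of tumors against those of healthy pancreas. All NPF libraries have no index, and only WT_CAF 1 and 2 share that format, so the fit, which has a format term, takes its estimates from these 2 WT_CAF libraries and not from all 5. None of the 8 members was called by limma (0 of 8), against 0.95% of all tested genes. At an unadjusted p under 0.05 were 4 of the 8 members and 2254 of the 13369 tested genes. Sox9 came nearest, at 1.91 ± 0.53 (adjusted p = 0.11), with all 5 WT_CAF above all 3 NPF, as for 5.13% of tested genes. Pdx1 was at 2.06 ± 0.75 (adjusted p = 0.20), Foxa1 at 2.15 ± 0.83 (0.22) and Foxa2 at 1.35 ± 0.60 (0.28). The size of Sox9 came in part, and those of Pdx1, Foxa1 and Foxa2 nearly in full, from WT_CAF 1. Without it Pdx1 was at 0.08, Foxa1 at 0.14, Foxa2 at 0.01 and Sox9 at 1.04, with adjusted p of 0.46 to 1. Without WT_CAF 2, which leaves WT_CAF 1 alone to set the size, these 4 genes were called (adjusted p = 2.98e-04 to 0.011).

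Gata6 changed its sign with WT_CAF 1. It was at -0.47 ± 0.88 (limma adjusted p = 0.84) with all libraries, and at 1.49 (adjusted p = 0.405) without WT_CAF 1, where only WT_CAF 2 sets the size. Without WT_CAF 1 and without the format term, 4 WT_CAF libraries entered on equal terms and Gata6 was higher than in NPF by 1.85 (adjusted p = 0.029), the only member called. In that setting the format and the group cannot be told apart for the libraries with an index. Within the no-index format, WT_CAF 2 stood at 22.9 FPKM and NPF at 6.59 to 8.51. Markers of macrophages were also higher in CAF than in NPF (summed FPKM 7.63 to 18.9 in CAF other than WT_CAF 1, 2.46 to 3.63 in NPF). Sums of mesothelial markers (18.7 to 104 in the same CAF, 8.93 to 35.9 in NPF) reached higher in CAF with overlap. So did those of endothelial markers (2.06 to 29.7 and 0.348 to 7.99). The part of any of these cell types in the Gata6 values was not tested. Hnf4a (0.49 ± 0.57), Gata4 (0.16 ± 0.53) and Ptf1a (-0.91 ± 0.73) were not called either, with adjusted p of 0.56 to 0.92.

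Loss of Saa3 was examined in fibroblasts (KO_CAF against WT_CAF) and in tumor cells (KO_tumor against WT_tumor). In fibroblasts 0 of 8 members were called by limma and 0 had an unadjusted p under 0.05, against 0.00748% of all tested genes called. The differences ran from -0.50 ± 0.48 (Gata4, 95% interval -1.53 to 0.54) to 0.62 ± 0.49 (Sox9, -0.44 to 1.67). With the format term, WT_CAF 1 and 2 do not enter these sizes or those of the interaction below, which rest on the other WT_CAF libraries. Gata6 was at 0.31 ± 0.81, with a 95% interval of -1.43 to 2.05, and at 1.37 without the format term. Without that term WT_CAF 1, at 0.583 FPKM of Gata6, enters on equal terms with the other WT_CAF libraries. All 9 members overlapped between KO_CAF and WT_CAF, as did all but 1.2% of tested genes.

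In tumor cells 0 of 8 members were called by limma and 1 had an unadjusted p under 0.05, against 0% of all tested genes called (528 at an unadjusted p under 0.05). All adjusted p were 1. The median over the 8 members was -0.70, and -0.02 over all tested genes, with 7 of 8 members below 0. Foxa2 was at -1.14 ± 0.50 (95% interval -2.22 to -0.05), and its 3 KO_tumor libraries, at 4.24, 5.76 and 15.4 FPKM, lay below the 4 of WT_tumor, at 15.6 to 18.5. Groups with all knockout libraries lower made up 2.25% of tested genes. Gata6 was at -0.95 ± 0.74 (-2.53 to 0.63), Hnf4a at -0.91 ± 0.47 (-1.92 to 0.11) and Gata4 at -0.90 ± 0.44 (-1.85 to 0.04), each with overlapping groups, and KO_tumor 3 was the highest of the 3 knockout libraries in all 4 genes. Single libraries moved these values by more than 1.5 times. Without KO_tumor 1, Hnf4a was at -0.35, Foxa2 at -0.75 and Gata6 at -0.58. Without KO_tumor 3, Hnf4a was at -1.44 and Gata6 at -1.58. Without WT_tumor 2, Hnf4a was at -0.59, Gata4 at -0.56 and Gata6 at -0.61. Pdx1 alone was above 0, at 0.50 ± 0.63 (-0.84 to 1.85).

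The difference between the knockout effects of the 2 cell types was tested as an interaction, and 0 of 8 members were called by limma, against 0% of all tested genes (185 at an unadjusted p under 0.05, 0 of them members). Gata6 had the largest value, at -1.26 ± 1.11 (95% interval -3.63 to 1.11, adjusted p = 1), and was at -2.35 without the format term and -1.97 without KO_tumor 3. The value without the format term includes WT_CAF 1, with its low Gata6, on equal terms.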

How the data were processed

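The authors deposited 1 table of FPKM per gene for all 18 libraries, which have no index, a 6-base or a 16-base index in their labels. Per the submitters' processing notes, the tools were Cufflinks 2.2.1 with Cuffnorm, TopHat2 2.0.10, SAMtools 0.1.19 and Bowtie 1.0.0, and mm9 is the only mouse build listed. The sources used here give no annotation, strand setting or order of the tools. No read depth can be had from FPKM. The summed FPKM ran from 396650 to 919860 per library and the genes at 1 FPKM or more from 10657 to 11670, and no common step of whole reads was found in the low values, so no counting interval or floor is given.

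FPKM were taken to log2(FPKM + 1). Genes with fewer than 3 libraries at 1 FPKM or more were removed (10582 of 23951), and limma 3.58.1 in R 4.3.3 (empirical Bayes with trend) was fitted to all 18 libraries with group and library format as terms (11 residual degrees of freedom), two-sided, with Benjamini-Hochberg adjustment over the 13369 genes left. The script was tested on simulated data. Alternatives were no format term, another scaling, pseudocount, filter, variance moderation or sample set, and each library left out in turn. A further 2 (the fit without WT_CAF 1 and without the format term, and the fit within 6-base libraries) were chosen after seeing the data. Promoter sequences and start sites were read from RefSeq's table for GRCm38.p6, matched by symbol, with chr18 left out for the members. No coordinates were taken from another build.

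The members and gene lists were chosen with earlier results of these data known. Named genes are all 9 members, Saa3 and the 3 genes most correlated with each tested member. Up to 4 called genes per direction and list, those with the largest difference between tumor cells and CAF, are named as well. Further genes are named where they bear on a library's label or on the filter. The lists held epithelial and ductal, acinar, endocrine and mesenchymal transcription factors, GATA and SOX relatives, acinar enzymes, classical and basal-like subtype genes, and markers of epithelial, fibroblast, endocrine, macrophage, endothelial and mesothelial cells. Some items, of the labels' genotypes and of the gene lists, are not reported here.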

Additional observations from a re-analysis of the deposited data

Results flagged for a closer look

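In groups of 4 or 5 libraries, a library was singled out where its gap to the nearest other was a large share of the group's range (Dixon's criterion at 95%). Of 18 combinations of member and group, 8 met it. Chance singles out about 1 in 20 groups, but these 8 cannot be set against that share, since 5 come from 1 library and 2 were fixed by 4 other libraries listed at 0. WT_CAF 1 gave the 5. It was high in Pdx1 (17.7 FPKM), Sox9 (21.28), Foxa1 (17.13) and Foxa2 (6.831) and low in Gata6 (0.5835). The other 3 were each the highest of their group. Ptf1a stood at 0.05725 FPKM in WT_CAF 3 with the other 4 WT_CAF libraries listed at 0, Nr5a2 at 0.04222 in WT_CAF 5 with the other 4 listed at 0, and Nr5a2 at 2.433 in WT_tumor 2, the library that also held the most Hnf4a, Gata4 and Gata6 of the tumor cells.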

How the results depend on the processing

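For tumor cells against CAF, Pdx1, Sox9, Hnf4a, Foxa1 and Foxa2 kept their call in every alternative run, and no member changed direction. A pseudocount of 0.1 moved sizes by over 1.5 times, to 6.25 for Pdx1, 6.51 for Hnf4a, 5.33 for Foxa1, 5.50 for Foxa2 and 2.91 for Ptf1a, which put Ptf1a above Sox9 (2.78). The count of members called, 8 with all libraries, was 7 or 8 with 1 library left out and 5 within the 6-base libraries, where Gata4 (adjusted p = 0.068), Gata6 (0.064) and Ptf1a (0.351) missed the threshold with fewer samples. Ptf1a also missed it without the format term (0.060) and without a filter (0.072). For WT_tumor against WT_CAF the count was 6, fell to 3 with only those groups in the fit, and was 4 (without WT_CAF 3, where Foxa1 and Gata4 lost the call) to 7 (without WT_CAF 1) with 1 library left out. For KO_tumor against KO_CAF it was 7, then 4 within the 6-base libraries and 5 to 6 with 1 library left out. For WT_CAF against NPF it was 0, then 1 without WT_CAF 1 and without the format term, and 0 to 4 with 1 library left out (4 without WT_CAF 2). There, Pdx1 turned to -0.11 without WT_CAF 1 and the format term, and Hnf4a to -0.051 without WT_CAF 1, with or without WT_tumor 4. Gata6 turned to 0.997 without the format term, 1.49 without WT_CAF 1, with or without WT_tumor 4, and 1.85 without WT_CAF 1 and the format term. With 1 library left out, Hnf4a ran from -0.051 to 1.03 and Gata6 from -2.43 to 1.49. For KO_CAF against WT_CAF, Gata4 turned to 0.23 within the 6-base libraries, and Gata6 ran from -0.083 (without WT_CAF 3) to 0.59. The cause of these changes was not tested. Single members were rerun for Gata4 and Gata6 there, and for Pdx1, Hnf4a, Foxa2, Gata4 and Gata6 in KO_tumor against WT_tumor, where none of the 90 values crossed the threshold or changed sign. Ptf1a, Sox9 and Foxa1 entered only the count of members called there, which was 0 in each alternative.

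Over all genes, tumor cells against CAF called 6141 genes and 3296 within the 6-base libraries. WT_tumor against WT_CAF called 2880, against 742 with only those groups, 1009 within the 6-base libraries, 1194 without WT_CAF 3 and 1827 without WT_tumor 1. KO_tumor against KO_CAF called 3798, against 1667 within the 6-base libraries, 2201 without KO_CAF 2 and 2308 without KO_CAF 3. WT_CAF against NPF called 127, and 2 (only those groups) to 1324 (without WT_CAF 2) in the alternatives, with 910 without WT_CAF 1 and the format term. Rescaling to a common sum moved the median of all genes for tumor cells against CAF from 0.07 to 0.19. No paired analysis was possible because the labels carry no replicate numbers. Without read counts, the precision of the low members (Ptf1a and Nr5a2) is not known.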
